A study of Mus musculus with 8 samples.

Results

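Pou5f1, Sox2, Nanog, Sall4, Lin28a and Utf1 are core pluripotency factors of mouse embryonic stem (ES) cells. They were found by their symbols in the gene column of the deposited expression table, and all 6 had an entry among its 23284 gene entries. The study sequenced RNA of 2 ES cell clones, each cultured with or without doxycycline. Clone 6 holds a transgene for Ctcfl, a germline paralog of the insulator protein Ctcf, and clone 7 holds no transgene. Per the labels' protocols, cells grown on mouse embryonic fibroblast feeders were moved off them and cultured for 48 h in medium that either held 2 µg/ml doxycycline or lacked it, before total RNA was sequenced as single-end reads of 75 bp. The 4 groups were clone 6 with doxycycline, clone 6 without it, clone 7 with doxycycline and clone 7 without it, each of 2 libraries that the labels call biological replicates. The labels give the strain of both clones as mixed, and they do not give the promoter or other parts of the transgene. Each genotype is therefore a single clone, and the transgene cannot be told apart from any other difference between the clones.

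Pluripotent cells are held in an undifferentiated state by a small circuit of transcription factors that bind each other's regulatory regions and their own. Pou5f1 (Oct4) is a POU-domain factor that pairs with the HMG-box protein Sox2 on adjoining octamer and Sox motifs, and the homeobox protein Nanog joins them at many of the same sites. In mouse ES cells Nanog varies from cell to cell, and its level is known to be higher in the naive state than in cells close to leaving pluripotency. Sall4 is a zinc finger protein that binds Oct4 and Nanog, Utf1 is a chromatin-bound protein whose gene is a classical Oct4 and Sox2 target, and Lin28a is an RNA-binding protein that blocks the maturation of let-7 microRNAs.

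The proximal promoters of Nanog and Sox2 are shown because these were the factors that differed between the clones, and because Oct4 and Sox2 are known to bind the composite site of the Nanog promoter. The sequences are from RefSeq (assembly GRCm38.p6, the patched form of mm10), are the 250 bases before the annotated start on the plus strand, and carry in capitals the matches to an octamer core (ATGCAAA, or TTTGCAT on the other strand) and a Sox core (CATTGT, or ACAATG).
Nanog, chr6:122707239-122707488: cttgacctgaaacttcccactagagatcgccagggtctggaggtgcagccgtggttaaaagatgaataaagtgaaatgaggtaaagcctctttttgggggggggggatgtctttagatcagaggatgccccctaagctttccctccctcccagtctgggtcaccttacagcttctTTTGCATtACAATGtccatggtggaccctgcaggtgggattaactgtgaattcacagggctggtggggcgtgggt
Sox2, chr3:34649745-34649994: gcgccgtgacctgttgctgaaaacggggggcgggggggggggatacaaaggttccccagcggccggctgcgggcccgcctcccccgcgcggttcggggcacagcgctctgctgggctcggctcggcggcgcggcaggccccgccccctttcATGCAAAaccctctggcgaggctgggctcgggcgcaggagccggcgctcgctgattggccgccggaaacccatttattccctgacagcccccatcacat
In the Nanog promoter the octamer core and the Sox core lay 1 base apart, 75 to 62 bases before the start. In the Sox2 promoter an octamer core lay 99 to 93 bases before the start.

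The promoter table held 5 of the 6 genes, and Sall4 had no entry. Searched on both strands, a Sox core was found in the Lin28a window (96 to 91 bases before the start) and before the downstream one of the 2 Pou5f1 starts (158 to 153 bases before it). The window of the other Pou5f1 start and that of Utf1 held neither core. Of 32851 promoter windows of the same length, 1355 (4.12%) held the octamer core and 3512 (10.7%) the Sox core. Both cores in this order with 1 base between them stood in 2 windows (0.00609%), which are the overlapping windows of the 2 annotated Nanog starts. The letters were chosen with the Nanog sequence in view, so that share is a description only, and no binding was measured in these samples.

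**Figure D1:**
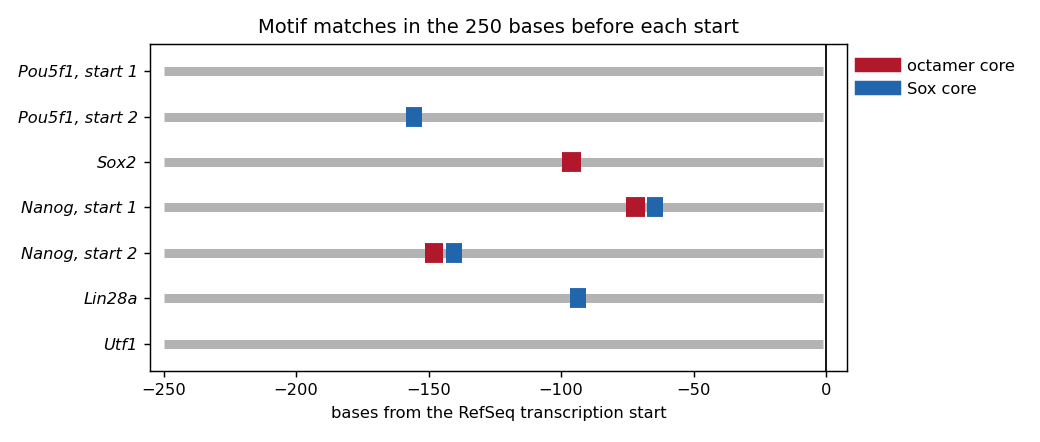
Matches to the octamer core (red) and the Sox core (blue) in the 250 bases before each RefSeq start of 5 core factors, with the horizontal axis in bases from the start. Both cores adjoin in the Nanog windows, which overlap and hold the same pair of matches, and the Sox2 window holds an octamer core alone.

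Expression was deposited in FPKM (fragments for each kilobase of transcript, scaled by the number of mapped fragments), and each group has 1 value, made from both of its libraries. Levels therefore carry no SD, and library depth is unknown. FPKM sums ran between 717813 and 737443 over the groups, and between 12033 and 12092 genes reached 1 FPKM. The median log2 ratio of genes at 1 FPKM or more was within 0.0241 of 0 in the 4 comparisons of clones or treatments. Ctcfl itself was at 0.995 FPKM in clone 6 with doxycycline and 0.403 FPKM in clone 6 without it, and its difference did not pass in the authors' deposited table (log2 ratio 1.30, p = 0.0062, q = 0.296). The clone 7 levels of Ctcfl were 0.498 and 0.513 FPKM with and without the drug. This entry does not tell the transgene from the resident gene.

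Pou5f1 was the most abundant of the 6 factors in every group and ranked between 112 and 121 among all gene entries. Its level was 1011 FPKM in clone 6 with doxycycline and 1116 FPKM in clone 6 without it, and 1108 FPKM in clone 7 with doxycycline and 1080 FPKM in clone 7 without it. The highest group was 1.1 times the lowest. The gene lies on chromosome 17 (chr17:35506032-35510777, mm10). Of the 75-base stretches of its transcripts, 171 of 2323 (7.36%) also occur in the annotated gene Gm19553, so reads from those stretches cannot be assigned to one of them.

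Utf1 followed. It was at 774 FPKM in clone 6 with doxycycline and 783 FPKM in clone 6 without it, against 925 FPKM in clone 7 with doxycycline and 999 FPKM in clone 7 without it. Both clone 7 groups stood above both clone 6 groups, with the highest 1.29 times the lowest. Utf1 is a short gene on chromosome 7 (chr7:139943856-139945112), and none of its 1153 stretches of 75 bases occurs in another gene.

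Lin28a was the third most abundant factor in both clones. The clone 6 levels were 181 and 198 FPKM with and without the drug, and the clone 7 levels were 203 and 192 FPKM. The highest group was 1.12 times the lowest. The deposited entry is at chr4:134003330-134018816, within the RefSeq gene (chr4:134003330-134019196), and the gene shares 161 of its 3914 stretches of 75 bases (4.11%) with Gm13061.

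Sox2 stood lower in the transgenic clone. It was at 121 FPKM in clone 6 with doxycycline and 105 FPKM in clone 6 without it, against 196 FPKM in clone 7 with doxycycline and 168 FPKM in clone 7 without it. Its rank among all gene entries was 809 and 919 in clone 6 with and without doxycycline, against 520 and 610 in clone 7. The RefSeq gene is at chr3:34649995-34652461. The deposited entry carries a wider position (chr3:34560381-34677993), the bounds of the noncoding gene Sox2ot, which overlaps Sox2 on the same strand. Sox2ot has an entry of its own at 0.328 and 0.327 FPKM in clone 6 with and without doxycycline, against 0.736 and 0.453 FPKM in clone 7, so its level was under 1 FPKM in all groups.

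Nanog ran the other way. It was at 128 FPKM in clone 6 with doxycycline and 97.6 FPKM in clone 6 without it, against 68.5 FPKM in clone 7 with doxycycline and 57.9 FPKM in clone 7 without it. Its highest group was 2.2 times its lowest, the widest range of the 6 factors, and Sox2 came next with 1.86 times. Nanog ranked 772 and 1003 in clone 6 with and without doxycycline, and 1458 and 1727 in clone 7. The deposited entry is at chr6:122707568-122713778, within the RefSeq gene (chr6:122707489-122714633) whose first start was used for the promoter above, and 35 of its 2207 stretches of 75 bases (1.59%) also occur in the pseudogene Nanog-ps1.

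Sall4 was the lowest of the 6 factors in clone 6, with levels of 75.8 FPKM under doxycycline and 87.4 FPKM in its absence. The clone 7 levels, 97.9 FPKM with the drug and 87.0 FPKM in its absence, were above those of Nanog. The highest group was 1.29 times the lowest. The gene is at chr2:168748332-168767201 and shares 219 of its 5364 stretches of 75 bases (4.08%) with Gm14261.

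**Figure D2:**
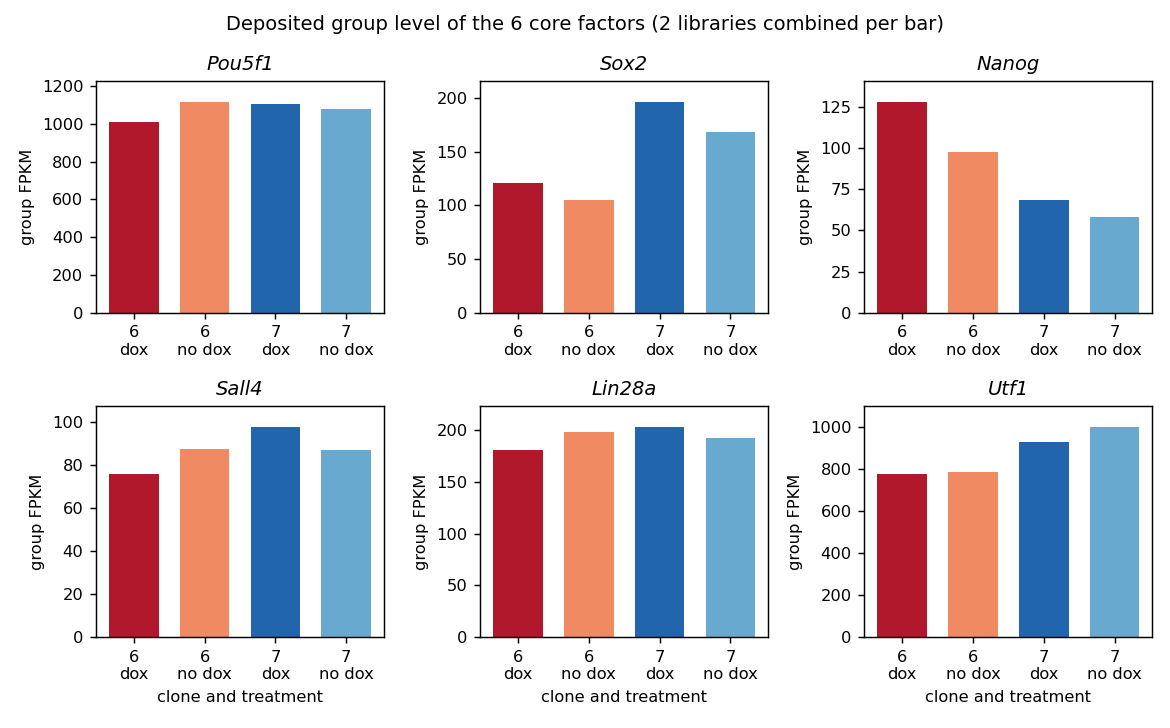
Deposited group FPKM (vertical axes, each starting at 0) of the 6 core factors in clone 6 and clone 7 with and without doxycycline, 1 bar per group of 2 combined libraries, with no error bars because no library values were used. The Sox2 bars of clone 6 (121 and 105 FPKM) stand below those of clone 7 (196 and 168 FPKM), the Nanog bars of clone 6 (128 and 97.6 FPKM) stand above those of clone 7 (68.5 and 57.9 FPKM), and the Pou5f1 and Lin28a bars are nearly level.

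The comparison of clone 6 with clone 7 asks what differs between the transgenic and the non-transgenic line, and it was made without and with doxycycline on separate libraries. Both use the same pair of clones, so their agreement is not a repeat in other clones. Nanog was higher and Sox2 lower in clone 6 under both conditions, while Pou5f1, Sall4, Lin28a and Utf1 did not pass the test in either. A gene was called where the authors' deposited table gives a tested status and a q-value under 0.05. Log2 ratios here were computed from the deposited FPKM as clone 6 over clone 7, the reverse of the deposited direction, and each standard error (SE) is the log2 ratio over the deposited test statistic. Without doxycycline 179 of 13047 tested genes were called (1.37%), of which 104 were higher and 75 lower. With doxycycline 199 of 13064 were called (1.52%), of which 112 were higher and 87 lower. Among the 6 factors 1 was called higher and 1 lower in each comparison. Among genes at 50 FPKM or more in both groups, where all 6 factors lie, 18 of 1851 (0.972%) and 22 of 1843 (1.19%) were called without and with doxycycline.

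Without doxycycline Nanog was 1.69-fold higher in clone 6, a log2 ratio of 0.75 with SE 0.28 and a 95% interval of 0.20 to 1.30 (p = 0.0003, q = 0.0344 in the authors' deposited table). With doxycycline it was 1.86-fold higher in clone 6, a log2 ratio of 0.90 with SE 0.3 and an interval of 0.31 to 1.48 (p = 5e-05, q = 0.00812 in the authors' deposited table). That p is the smallest the table holds and is shared by 481 tests of all comparisons. Both intervals lay above 0.

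Sox2 without doxycycline reached 0.624 times the clone 7 level in clone 6, a log2 ratio of -0.68 with SE 0.316 and an interval of -1.30 to -0.06 (p = 0.0002, q = 0.0252 in the authors' deposited table). With doxycycline the ratio was 0.619, a log2 ratio of -0.69 with SE 0.282 and an interval of -1.25 to -0.14 (p = 0.0004, q = 0.0429 in the authors' deposited table). The ratio was thus close to the same in both culture conditions, and Sox2 and Nanog differed between the clones in opposite directions.

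For Nanog and Sox2 the deposited p-values are smaller than a normal test on the deposited test statistics gives. Under that normal test, with Benjamini-Hochberg adjustment over all comparisons, the adjusted p of Nanog was 0.436 without and 0.221 with doxycycline and that of Sox2 was 1 and 0.686, so none of the 4 calls was kept. At a q threshold of 0.01 Nanog with doxycycline stayed called and the other 3 calls were lost.

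Pou5f1 had log2 ratios of 0.05 without doxycycline (95% interval -0.34 to 0.43, p = 0.7838 in the authors' deposited table) and -0.13 with it (-0.64 to 0.37, p = 0.4617 in that table). Lin28a had 0.05 (-0.54 to 0.63) and -0.17 (-0.79 to 0.45). For neither gene do these intervals exclude a difference of 1.2-fold in either direction. Sall4 was at a log2 ratio of 0.01 without doxycycline and -0.37 with it (-0.90 to 0.16, p = 0.04915, q = 0.955 in the authors' deposited table).

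Utf1 was at a log2 ratio of -0.35 without doxycycline (SE 0.106, p = 0.0449, q = 0.917 in the authors' deposited table) and -0.26 with it (SE 0.117, p = 0.1741 in that table). It was called in neither. Its SE was the smallest of the 6, and here the normal test gave the smaller adjusted p, 0.0913 without doxycycline, which also missed the threshold. The 95% intervals, built from the same statistic, lay below 0 (-0.56 to -0.14 and -0.49 to -0.03). Without doxycycline the deposited p-value was also under 0.05 before adjustment. With doxycycline it was not, so there the interval and the deposited p-value do not say the same.

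**Figure D3:**
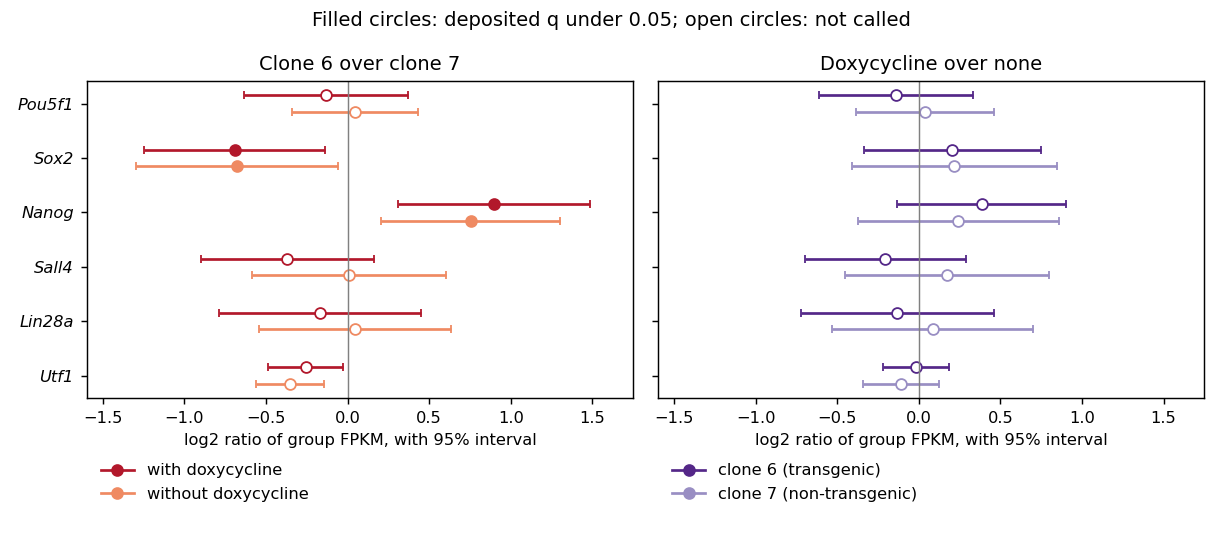
Log2 ratio of group FPKM (horizontal axes) of each core factor with its approximate 95% interval, for clone 6 over clone 7 with and without doxycycline (left) and for doxycycline over none in clone 6 and clone 7 (right); filled circles mark a deposited q under 0.05. The filled circles are those of Sox2 (-0.69 and -0.68) and Nanog (0.90 and 0.75) between the clones, and none of the doxycycline circles is filled.

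Doxycycline is the common inducer of such transgenes, and clone 7, which has none, was given the same drug. No core factor was called in either clone. In clone 6, 14 of 13003 tested genes were called (0.108%), of which 12 were higher and 2 lower. In clone 7, 0 of 12908 were called (0%). The authors' deposited table gives p-values under 0.05 before adjustment to 14 of these, and to 140 of the 13003 in clone 6. Evenly spread p-values would put a share of 0.05 of the tests there, far more than either count. An absent call here therefore does not show that a gene did not respond. The normal test on the deposited statistics called 34 genes in clone 6 and 20 in clone 7, none of them a core factor. Adjusted within the comparison alone, 0 genes were called in either clone. No deposited p-value is below 5e-05, and why the calls of clone 6 were lost under that adjustment was not tested.

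Nanog had the largest doxycycline difference of the 6 factors in both clones. In clone 6 the levels were 128 FPKM with doxycycline and 97.6 FPKM without, a log2 ratio of 0.39 (SE 0.264, 95% interval -0.13 to 0.90, p = 0.04375, q = 0.904 in the authors' deposited table). In clone 7 the levels were 68.5 FPKM with doxycycline and 57.9 FPKM without, a log2 ratio of 0.24 (-0.37 to 0.86, p = 0.2683 in the authors' deposited table). Sox2 had nearly equal ratios in both clones, 0.21 in clone 6 and 0.22 in clone 7. Neither factor passed the test, in a clone with the transgene or in one without it.

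Pou5f1, Sall4 and Lin28a had log2 ratios of -0.14, -0.21 and -0.13 with doxycycline in clone 6 and of 0.04, 0.17 and 0.09 in clone 7, all within intervals that include 0. Utf1 was at -0.02 in clone 6 and -0.11 in clone 7. In all, 2 of the 6 factors were above 0 in clone 6 and 5 of 6 in clone 7, with medians of -0.07 and 0.13 beside 0.00 and 0.02 for all tested genes.

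The difference between the 2 clones' responses was tested for every gene with a two-sided normal test on the difference of the log2 ratios, and 18 of 12638 genes passed after Benjamini-Hochberg adjustment (0.142%). No core factor did, and each had an adjusted p of 1. The difference, clone 6 minus clone 7, was largest for Sall4, at -0.38 (95% interval -1.17 to 0.42). It was -0.22 for Lin28a (-1.07 to 0.64), -0.18 for Pou5f1 (-0.81 to 0.46), 0.14 for Nanog (-0.66 to 0.95), 0.09 for Utf1 (-0.22 to 0.40) and -0.01 for Sox2 (-0.84 to 0.82). For 5 of the 6 factors these intervals would hold a difference of 1.5-fold, and Utf1 had the narrowest.

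When the 4 groups were put in order for each factor, no neighbours in the order differed past the threshold. The order for Nanog was clone 6 with doxycycline, clone 6 without, clone 7 with and clone 7 without. The order for Sox2 was clone 7 with, clone 7 without, clone 6 with and clone 6 without. In both, the step between the clones joins groups that differ in treatment as well. That step had p = 0.0168 and q = 0.539 for Nanog and p = 0.00935 and q = 0.385 for Sox2 in the authors' deposited table. For Nanog the ends of the order, clone 6 with doxycycline against clone 7 without it, were 2.2-fold apart (log2 ratio 1.14, q = 0.00812 in the authors' deposited table), which the normal test also called with an adjusted p of 0.00926. For Sox2 the ends were clone 6 without doxycycline and clone 7 with it, at a log2 ratio of -0.90 (q = 0.00812 in that table, adjusted p 0.367 in the normal test). In these comparisons of ends, 211 of 13060 (1.62%) and 179 of 13045 genes (1.37%) were called. Each pair of ends was picked as the highest and lowest of the 4 groups. Its q and adjusted p take no account of that choice and are descriptions only. Each pair also differs in both clone and treatment.

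The balance between the factors shifted with the clone. Nanog and Sox2 were at nearly the same level in clone 6, with Nanog at 1.05 times Sox2 with doxycycline and 0.929 times without it. In clone 7 Nanog was at 0.35 and 0.344 times Sox2 with and without doxycycline. Per Pou5f1, Nanog was at 0.126 and 0.0875 in clone 6 and 0.0618 and 0.0536 in clone 7 with and without doxycycline. Lin28a kept a near constant ratio to Pou5f1, between 0.178 and 0.184 in the 4 groups. Sall4 lay between 0.075 and 0.0883 of Pou5f1 and Utf1 between 0.702 and 0.925. These ratios are descriptions of the group levels and carry no test.

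Proteins that bind or regulate with Oct4, Sox2 and Nanog were counted in a list of 28 genes, all of which were tested. Of these, 1 was called lower and 0 higher in clone 6, without doxycycline and again with it, and 0 were called with doxycycline in either clone. The gene called was Nr0b1 (Dax1), an orphan nuclear receptor that binds Oct4. It was at 15.1 and 10.1 FPKM in clone 6 with and without doxycycline, against 41.8 and 28.0 FPKM in clone 7, a log2 ratio of -1.47 in both clone comparisons (q = 0.00812 in the authors' deposited table). With doxycycline over none its log2 ratio was 0.58 in each clone, not called in either. The most abundant partners were the corepressor Trim28, at 611 and 644 FPKM in clone 6 and 681 and 693 FPKM in clone 7 with and without doxycycline, and L1td1, an RNA-binding protein of ES cells, at 292 and 326 FPKM in clone 6 and 373 and 355 FPKM in clone 7. Neither was called. The list's median log2 ratio was -0.02 between the clones without doxycycline and -0.04 with it, beside -0.00 and -0.02 for all tested genes.

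Of 21 targets of Oct4 and Sox2, 3 were lower and 1 higher in clone 6 without doxycycline, and 3 were lower and 2 higher with it. With doxycycline over none, 0 were called in either clone. The lower targets were the growth factor gene Fgf4, the polycomb cofactor gene Jarid2 and the forkhead factor gene Foxd3. Fgf4 was at 25.5 and 28.9 FPKM in clone 6 with and without doxycycline, against 53.1 and 49.4 FPKM in clone 7 (log2 ratios -1.06 with and -0.78 without, q = 0.00812 and 0.0145 in the authors' deposited table). Jarid2 was at 47.3 and 50.3 FPKM in clone 6, against 99.7 and 81.1 FPKM in clone 7. Foxd3 was at 21.4 and 23.2 FPKM in clone 6, against 42.4 and 41.4 FPKM in clone 7. In each of these, both clone 6 groups stood below both clone 7 groups, an order largely set by picking genes called lower in both comparisons.

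Zfp42 (Rex1), a zinc finger gene of naive ES cells, was higher in clone 6 in both comparisons. It was at 88.3 and 58.8 FPKM in clone 6 with and without doxycycline, against 20.1 and 18.9 FPKM in clone 7 (log2 ratios 2.13 with and 1.64 without, both q = 0.00812 in the authors' deposited table). Other naive-state genes of the list were not called, and most lay on the other side of 0. The nuclear receptor gene Esrrb was at 28.6 and 19.7 FPKM in clone 6 with and without doxycycline, against 43.1 and 32.8 FPKM in clone 7 (log2 ratios -0.59 with and -0.73 without, q = 0.302 and 0.064 in the authors' deposited table). The Krüppel-like factor genes had log2 ratios of -0.70 and -0.72 (Klf4), -0.57 and -0.69 (Klf2) and -0.46 and -0.62 (Klf5) with and without doxycycline, and Fbxo15, an F-box gene of ES cells, had -0.91 and -1.05. Tfcp2l1 was at 0.13 and 0.02. Lefty1, an inhibitor of Nodal, was higher in clone 6 with doxycycline (324 against 185 FPKM in clone 7, log2 ratio 0.81) and was not called without it (302 against 231 FPKM, 0.39). The most abundant targets, the secreted protein gene Spp1 and the Nodal coreceptor gene Tdgf1, were not called. Spp1 was at 389 and 419 FPKM in clone 6 with and without doxycycline and at 484 and 461 FPKM in clone 7. Tdgf1 was at 447 and 531 FPKM in clone 6 and at 472 and 469 FPKM in clone 7. The list's median log2 ratio was -0.18 without doxycycline and -0.44 with it, with 14 and 17 of the 21 below 0. For all tested genes the medians were -0.00 and -0.02, and the counts below 0 carry no test.

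**Figure D4:**
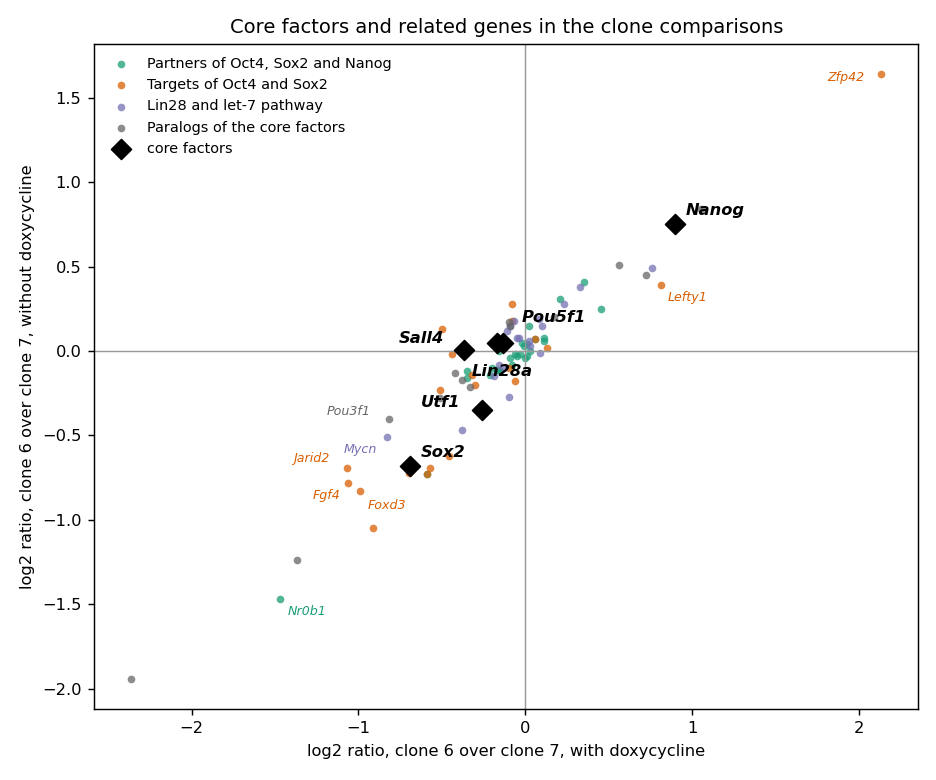
Log2 ratio of clone 6 over clone 7 with doxycycline (horizontal axis) and without it (vertical axis) for the 6 core factors (diamonds) and the tested genes of 4 related lists (dots), with the genes called in either comparison named. Sox2 lies at -0.69 and -0.68 beside the unnamed dot of Klf4 (-0.70 and -0.72), which was not called. Nanog lies at 0.90 and 0.75, and Zfp42 beyond it at 2.13 and 1.64.

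Around Lin28a, a list of the let-7 pathway held 29 names, some of them older and newer symbols of one gene, of which 25 had an entry and 19 were tested in each of the 4 comparisons. Between the clones 1 gene was called, Mycn, a Myc family factor gene that was lower in clone 6 with doxycycline (116 against 207 FPKM in clone 7, log2 ratio -0.83, q = 0.00812 in the authors' deposited table). Without doxycycline Mycn was at 134 FPKM in clone 6 and 191 FPKM in clone 7, which was not called. No gene of this list was called with doxycycline in either clone. The paralog Lin28b was at 12.8 and 14.5 FPKM in clone 6 and 13.6 and 13.1 FPKM in clone 7 with and without doxycycline, so Lin28a was the dominant paralog in all groups. Ddx5, a helicase of the microRNA processing complex and the most abundant of the list, was at 258 and 259 FPKM in clone 6 and at 267 and 246 FPKM in clone 7. Of 7 let-7 hairpin genes, 4 were listed at 0 in every group. Such short genes are poorly measured by this assay, so the let-7 level itself is not given.

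Among 19 paralogs and neighbours of the factors, 1 was called. Pou3f1 (Oct6), a POU factor of the primed epiblast, was lower in clone 6 with doxycycline (54.0 against 95.7 FPKM in clone 7, log2 ratio -0.82, q = 0.00812 in the authors' deposited table) and not called without it (73.6 against 97.3 FPKM). It was the most abundant of the list, far below Pou5f1. Sall1, the next, was at 29.1 and 30.2 FPKM in clone 6 with and without doxycycline and at 41.4 and 36.8 FPKM in clone 7, not called. Of the closest Sox relatives, Sox3 was at 20.1 and 25.8 FPKM in clone 6 and 17.9 and 22.6 FPKM in clone 7, and Sox1 was under 1 FPKM in every group. Paralogs below 1 FPKM in all groups numbered 7.

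ES cell identity was checked on 10 markers beyond the core factors, most of which are also in the list of targets above. All 10 were tested, and Dppa5a, the most abundant, was at 1553 and 1269 FPKM in clone 6 and 1431 and 1218 FPKM in clone 7 with and without doxycycline. The summed level of the list was 2301 and 2046 FPKM in clone 6, and 2212 and 1959 FPKM in clone 7. Between the clones Zfp42 was called higher and Fgf4 lower, in each culture condition, which repeats calls already given with the targets. With doxycycline over none, 0 of 10 were called in either clone, while 8 of 10 were above 0 in clone 6 and 10 of 10 in clone 7. The median log2 ratio of all tested genes was 0.00 and 0.02 there, and such counts of direction carry no test. Of 5 primed epiblast markers, Pou3f1 was called lower in clone 6 with doxycycline and none in the other comparisons. Their summed level was 452 and 584 FPKM in clone 6 with and without doxycycline, and 569 and 608 FPKM in clone 7. Doxycycline gave 0 calls among the 5 in either clone. By direction alone, which carries no test, all 5 were below 0 with doxycycline in clone 6 and 4 in clone 7. The most abundant of them, the DNA methyltransferase gene Dnmt3b, was at 331 and 424 FPKM in clone 6 and 397 and 430 FPKM in clone 7.

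Primitive streak markers and a pair of keratin genes moved with the clone beside Nanog and Sox2. Of 6 primitive streak markers, 4 were higher in clone 6 without doxycycline and 5 with it. Their summed level was 122 and 115 FPKM in clone 6 with and without doxycycline, against 12.9 and 14.6 FPKM in clone 7. The T-box gene T (Brachyury) was at 36.3 and 22.4 FPKM in clone 6, against 2.02 and 1.67 FPKM in clone 7, and Fgf8 was at 55.1 and 61.8 FPKM, against 5.81 and 7.01 FPKM. Eomes, a T-box gene, was at 15.2 and 18.8 FPKM in clone 6, against 2.67 and 2.79 FPKM in clone 7, and Wnt3 at 7.87 and 7.02 FPKM, against 1.07 and 1.44 FPKM. These 4 were called in both clone comparisons, and the homeobox gene Mixl1 was called with doxycycline (3.50 FPKM in clone 6, against 0.653 FPKM in clone 7). Of 7 trophoblast markers, the keratin genes Krt8 and Krt18 were higher in clone 6 in both clone comparisons and higher with doxycycline in clone 6. The calls with doxycycline in clone 6 were lost when p-values were adjusted within that comparison alone, where 0 genes were called. The deposited p-values of these 2 calls were 0.00015 for Krt8 and 5e-05, the smallest in the deposit, for Krt18. Why the calls were lost was not tested. Krt8 was at 184 and 112 FPKM in clone 6 with and without doxycycline, against 26.8 and 30.8 FPKM in clone 7. The list summed to 370 and 222 FPKM in clone 6, against 72.2 and 81.6 FPKM in clone 7, most of it from the keratin genes. The defining trophoblast factor Cdx2 was at 1.84 and 1.42 FPKM in clone 6, against 0.430 and 0.514 FPKM in clone 7, and Elf5 was below 0.1 FPKM in all groups. All 6 tested markers of this list were above 0 in clone 6 over clone 7, in both comparisons. Their median log2 ratio was 1.14 without doxycycline and 1.93 with it, and such counts of direction carry no test. The part of these cells or programs in the Nanog and Sox2 differences was not tested. In bulk RNA, a change in the share of cells that express a gene and a change in its level per cell cannot be told apart.

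Of 6 neural markers, the eye and brain factor gene Pax6 was lower in clone 6 with doxycycline (0.991 against 3.28 FPKM in clone 7) and none was called without it. Their summed level was 71.7 and 75.1 FPKM in clone 6 with and without doxycycline, against 83.0 and 89.2 FPKM in clone 7, most of it Tubb3 and Nes. Of 7 endoderm markers, 5 were below 1 FPKM in all groups and 0 were called. Their sum was between 6.88 and 7.67 FPKM, and the highest was the adaptor gene Dab2 at 4.15 and 4.90 FPKM in clone 6 and 4.87 and 4.95 FPKM in clone 7. Of 11 fibroblast markers, which feeder cells would bring, 0 were called. They summed to 440 and 413 FPKM in clone 6, against 355 and 354 FPKM in clone 7. The largest, the fibronectin gene Fn1, was at 207 and 184 FPKM in clone 6 and 180 and 175 FPKM in clone 7, and the collagen gene Col1a1 was at 140 and 132 FPKM in clone 6 and 86.8 and 92.8 FPKM in clone 7.

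For each factor, the genes with the most similar pattern over the 4 groups were found among 8185 genes at 5 FPKM or more in all groups, by the root mean square difference of log2 FPKM values after each gene was centred on its own mean. With 4 points per gene the likeness is a description only. Nearest to Nanog were the epoxide hydrolase gene Ephx2 (0.0501) and the S100 calcium-binding protein gene S100a11 (0.0550), and 14 genes lay within 0.1. S100a11 was at 429 and 344 FPKM in clone 6 with and without doxycycline, against 239 and 216 FPKM in clone 7. Nearest to Sox2 were Gpa33 (0.0177), Gm13212 (0.0267) and Gfpt2 (0.0277), and 53 genes lay within 0.1. Gpa33 was at 17.3 and 14.6 FPKM in clone 6, against 28.2 and 23.9 FPKM in clone 7.

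The patterns of the other factors were common ones. For Pou5f1, 4494 genes lay within 0.1, led by Tmem29 (0.0039), Prkab1 (0.0046) and Srsf1 (0.0046). For Lin28a there were 4361, led by Sephs2 (0.0033), Ptges3 (0.0037) and Zfp217 (0.0069). For Sall4 there were 1676, led by Rpusd2 (0.0107), Traf3ip1 (0.0118) and Zbtb8a (0.0134), and for Utf1 there were 981, led by Acot1 (0.0095), Pja1 (0.0113) and Sap30 (0.0113). A near-flat gene is close to any other near-flat gene by this measure.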

How the data were processed

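RNA of 8 libraries, 2 in each of 4 groups, was measured by sequencing. Per the submitters' processing notes, the software was TopHat2 2.0.8 and Cufflinks 2.1.1, with genome build mm10. What each program did, the annotation, the strand setting and the normalization were not stated there or in the labels. The authors deposited a single table, laid out as Cuffdiff writes its gene tests, with 6 pairwise comparisons of the 4 groups. Levels were deposited as 1 FPKM value per gene and group, so no library could be tested, left out or paired, and counting precision is unknown. The test statistic was deposited as an unbounded score. No deposited p-value is below 5e-05. The deposited q-value was checked to be a Benjamini-Hochberg adjustment over all 78127 tests, within 5.21e-07. All tests compare groups of 2 libraries, and p-values measure the spread that the authors' model gave to them.

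From the deposited values, log2 ratios were computed with no pseudocount, SEs as the log2 ratio over the test statistic, and 95% intervals from the SEs, which are approximate. The difference between responses was tested as described with the results. The core factors and all lists were chosen with earlier results of these data known. The text names all core factors, list genes with a q-value under 0.05 in a comparison of clones or treatments, the 2 most abundant genes of each list and the 3 genes nearest to each factor in pattern, of which 1 is not reported here. Some list genes outside this rule (Cdx2, Elf5, Esrrb, Fbxo15, Klf2, Klf4, Klf5, Lin28b, Sox1, Sox3, Sox2ot and Tfcp2l1) were named after their values were seen. Promoters were searched for letters chosen with the Nanog sequence in view. Alternatives were other adjustments, thresholds, filters on low values, pseudocounts and scalings and, chosen after seeing the data, a normal test on the deposited statistic. Software was Python 3.11.15, pandas 2.3.3, scipy 1.17.1 and matplotlib 3.10.9.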

Additional observations from a re-analysis of the deposited data

How the results depend on the processing

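Nanog and Sox2 were called between the clones, without and with doxycycline, when p-values were adjusted within each comparison, when genes below 1 or 5 FPKM in both groups were left out and at a threshold of 0.1. At a threshold of 0.01 the core factors called were 0 without doxycycline and 1 with it, against 2 in each at 0.05, and the genes called were 97 and 125, against 179 and 199. The normal test on the deposited statistic, added after seeing the data, called 0 core factors in both, and 34 and 20 genes with doxycycline in clones 6 and 7, against 14 and 0. For doxycycline in clone 6, 0 genes were called when adjusted within the comparison and 7 at 0.01. With SEs taken from the deposited p-value, 0 genes passed the test of the difference between responses, against 18. Equal FPKM sums turned the log2 ratio of Sall4 between the clones without doxycycline to -0.0313, against 0.0076 as deposited, and pseudocounts of 0.1 or 1, median centring and, for the other ratios, equal sums changed no direction. A q under 0.01 is reached at the smallest deposited p, 5e-05, whose q is 0.00812. A p of 0.0001 already has q = 0.0145 in the authors' deposited table. The cause of the other changes, among them the loss for doxycycline in clone 6 when adjusted within the comparison, was not tested. With genes at 1 FPKM or more, Nanog and Utf1 each kept 1 of their 3 nearest genes. No paired analysis was possible because the deposited values combine both libraries of a group, and leaving out a replicate could not be run for the same reason. Depth is unknown, so no detection limit is given.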
